A study of Mus musculus with 30 samples.

Results

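Myc, Mycn, the G1 cyclins Ccnd1, Ccnd2, Ccnd3, Ccne1 and Ccne2, and the cyclin-dependent kinase inhibitor gene Cdkn1b, which encodes p27, were followed in mouse embryonic stem cells after Nanog was withdrawn and briefly returned. These 8 genes were chosen by name. Each was read from the array's transcript cluster (the probes designed against 1 locus) that carries its symbol alone in the platform table. All 8 were found among the 23385 clusters with a gene symbol. Where a gene had several such clusters, the one with the highest mean over all 30 arrays was used. Cdkn1b had a further cluster, 10542317, whose values are given beside each called difference of the cluster used, 10542310.

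Total RNA was measured on 30 Affymetrix gene arrays, 3 in each of 10 groups. All groups came from 1 clone of embryonic stem cells, AINV15_Nanog_Rescue, which carries rtTA, the doxycycline-activated transactivator, and expresses Nanog when doxycycline is present. The cells were maintained on primary mouse embryonic fibroblasts and grown with doxycycline at 1 ug/ml. The groups were day 0 with doxycycline, and then, for each of days 1, 3 and 5, a 12 h pulse with doxycycline, the matching 12 h control without it, and the withdrawal cells taken at the start of that 12 h window. No arrays of cells kept on doxycycline until days 1, 3 or 5 were used here, so withdrawal and days in culture cannot be told apart. With a single clone, effects of Nanog and of doxycycline itself cannot be told apart either. Values are log2 signals, changes are log2 differences between group means ± SE (3 arrays in each group), and a gene is said to have risen or fallen where limma's p, adjusted over the 23385 clusters, was under 0.05.

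Myc and Mycn are closely related transcription factors that pair with Max and raise the expression of genes for ribosome production, nucleotide synthesis and growth. D-type cyclins bind Cdk4 and Cdk6, and E-type cyclins bind Cdk2. Both kinds of kinase phosphorylate the retinoblastoma protein, which frees E2F factors to drive entry into S phase, while p27 binds and holds back cyclin E complexes. Mouse embryonic stem cells are known for a short G1 phase, abundant cyclin E and little dependence on D-type cyclins.

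The Nanog signal followed doxycycline. Across the 12 arrays with doxycycline at harvest it lay between 10.70 and 11.11, and across the 18 arrays without it between 9.64 and 10.57. Array medians ran from 7.33 to 7.46, but the interquartile range of the signals on an array ran from 2.43 to 2.95. The 4 arrays with the widest range, at 2.77 or above, were all 12 h controls: day 1 replicate 3, day 3 replicate 2, and day 5 replicates 2 and 3. Where leaving out these 4 arrays changed the call of a gene in a comparison with pulse or control cells, the value without them is also given. Pluripotent stem cell markers averaged 11.34, 11.35, 11.22 and 10.86 at days 0, 1, 3 and 5 of withdrawal over 10 genes. Over the same 4 days the 19 markers of feeder fibroblasts averaged 7.29, 7.34, 7.50 and 7.60, and the 10 markers of simple epithelium and trophoblast averaged 8.01, 8.0, 8.62 and 9.28.

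By day 5 of withdrawal both Myc genes, Ccnd1 and Ccne1 were lower, and Cdkn1b was higher. Of the 8 genes, Mycn rose and Ccnd1 and Ccnd3 fell at day 1, when 6.51% of all clusters were called in either direction. At day 3, 4 genes fell (Myc, Ccnd1, Ccnd3 and Ccne1), beside 33.8% of all clusters called. At day 5, 4 genes fell (Myc, Mycn, Ccnd1 and Ccne1) and 2 rose (Ccnd2 and Cdkn1b), beside 42.5% called. The median difference of the 8 genes at day 5 was −0.67, and that of all clusters was −0.0059. Between days 1 and 3 of withdrawal 5 genes fell and 0 rose, beside 22.9% of all clusters called, and between days 3 and 5 there were 4 that fell and 2 that rose, beside 12.3%. The calls against day 0 were the same without the 4 widest arrays.

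**Figure D1:**
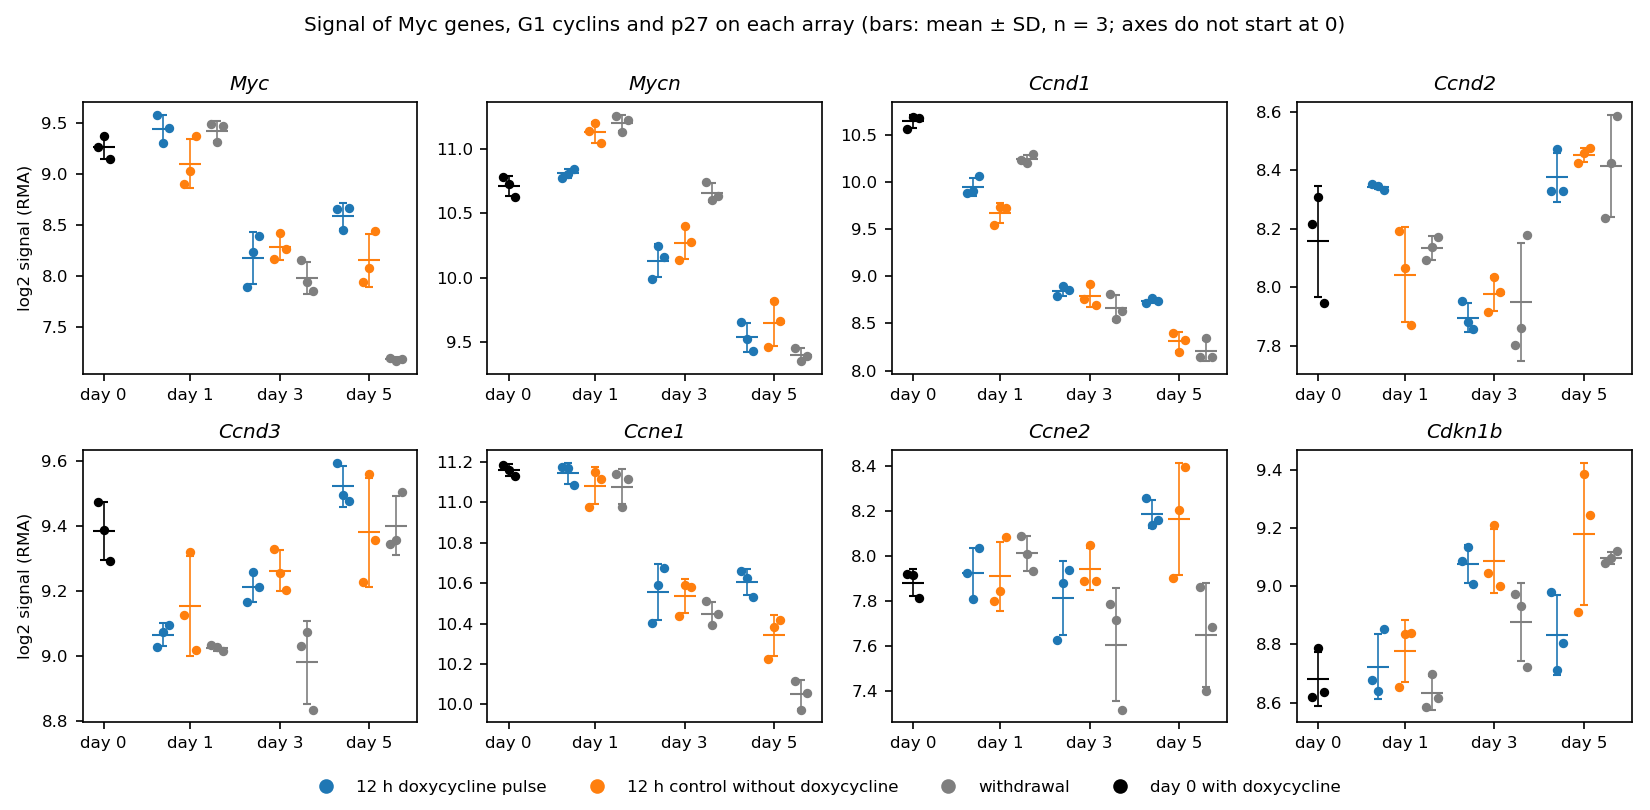
Log2 signal of each gene on each of the 30 arrays (points), with the mean and SD of the 3 arrays in each group; within days 1, 3 and 5 the order is pulse, control and withdrawal. Myc, Mycn, Ccnd1 and Ccne1 are lower at day 5 than at day 1 in all 3 kinds of sample, and the day 5 withdrawal arrays of Myc lie apart from all other arrays.

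Myc, read from cluster 10424400, had signals of 9.26, 9.37 and 9.15 at day 0, 9.48, 9.31 and 9.47 at day 1, 8.15, 7.94 and 7.85 at day 3 and 7.20, 7.17 and 7.19 at day 5 of withdrawal. Day 1 arrays overlapped those of day 0, all day 3 arrays were lower, and the day 5 arrays lay lower again, close to each other. The difference from day 0 was 0.16 ± 0.13 at day 1 (adjusted p = 0.596), −1.28 ± 0.13 at day 3 (adjusted p = 1.58e-08) and −2.07 ± 0.13 at day 5 (adjusted p = 7.17e-13). The day 5 signal was 0.238 times that of day 0. Most of the fall lay between days 1 and 3, at −1.44 ± 0.13 (adjusted p = 7.32e-09), and a smaller step of −0.80 ± 0.13 followed between days 3 and 5 (adjusted p = 7.85e-05). Both steps were called.

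The order of Myc over the 10 groups had 2 breaks. Day 1 pulse (9.44), day 1 withdrawal (9.42), day 0 (9.26) and day 1 control (9.10) came highest, with no called difference between neighbours. A called gap of 0.51 separated them from day 5 pulse (8.59), day 3 control (8.28), day 3 pulse (8.18), day 5 control (8.16) and day 3 withdrawal (7.98). A further called gap of 0.80 led to day 5 withdrawal (7.19). Over all 10 groups the means spanned a 4.77-fold range, and 32 of the 45 pairs of groups were called different.

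Mycn, read from cluster 10399421, rose before it fell. Its signals were 10.78, 10.73 and 10.63 at day 0, 11.25, 11.13 and 11.22 at day 1, 10.74, 10.60 and 10.63 at day 3 and 9.46, 9.36 and 9.39 at day 5 of withdrawal. All day 1 arrays were above all day 0 arrays, day 3 arrays overlapped day 0, and day 5 arrays were below all others of the course. Mycn was higher by 0.49 ± 0.085 at day 1 (adjusted p = 0.000382), differed by −0.052 ± 0.085 at day 3 (adjusted p = 0.695), and was lower at day 5, at −1.31 ± 0.085 (adjusted p = 1.65e-12). The steps were −0.54 ± 0.085 between days 1 and 3 and −1.26 ± 0.085 between days 3 and 5, so the larger step came later than that of Myc. Both Mycn steps were called, with adjusted p = 2.78e-05 and 6.77e-11.

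Apart from day 0, the group means of Mycn were ordered by day, with day 1 withdrawal (11.20) and day 1 control (11.13) highest, then day 1 pulse (10.81), day 0 (10.71) and day 3 withdrawal (10.66). Day 3 control (10.27) and day 3 pulse (10.13) followed, and day 5 control (9.65), day 5 pulse (9.54) and day 5 withdrawal (9.40) came last. The called gaps between neighbours were those below day 1 control, day 3 withdrawal and day 3 pulse. The span was 3.48-fold, with 37 of 45 pairs called.

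The window around the Mycn start site is shown because it was the only one among the 5 windows found for the 8 genes that held the E2F-like word TTTNNCGC. RefSeq windows (mouse GRCm38.p6, 250 bases before to 50 after a start) were matched for 4 of the 8 genes, Mycn, Ccnd3 with 2 starts, Ccne1 and Cdkn1b. The Mycn window lies at chr12:12941787-12942086 on the minus strand, and capitals mark every match of the word on either strand.
Mycn: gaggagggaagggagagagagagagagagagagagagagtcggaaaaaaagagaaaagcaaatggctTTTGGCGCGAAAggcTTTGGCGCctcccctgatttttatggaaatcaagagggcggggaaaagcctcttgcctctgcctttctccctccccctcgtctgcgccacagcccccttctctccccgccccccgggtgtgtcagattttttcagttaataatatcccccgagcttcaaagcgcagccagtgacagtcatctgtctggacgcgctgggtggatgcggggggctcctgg
The 3 matches overlap or lie close together, starting at −183 on the coding strand, −179 on the other and −168 on the coding strand. The word was present in 5.17% of all 32851 windows. The E-box CACGTG, the site that Myc and Max complexes bind, was in 7.15% of all windows and in 0 of the 5 windows here. A match describes letters and not binding.

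Ccnd1, a D-type cyclin that growth factor signals induce, was lower at every day of withdrawal (cluster 10569646). The signals were 10.56, 10.70 and 10.68 at day 0, 10.23, 10.21 and 10.30 at day 1, 8.81, 8.55 and 8.63 at day 3 and 8.15, 8.34 and 8.14 at day 5. No array of a later day reached one of an earlier day. The difference from day 0 was −0.40 ± 0.08 at day 1 (adjusted p = 0.00185), −1.98 ± 0.08 at day 3 (adjusted p = 5.32e-16) and −2.43 ± 0.08 at day 5 (adjusted p = 2.33e-18), which is 5.4-fold lower. In absolute size the day 5 change was at the 99.9th percentile of all tested clusters. The steps after day 1 were −1.58 ± 0.08 to day 3 and −0.46 ± 0.08 to day 5, both called (adjusted p = 1.79e-13 and 0.000213).

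In the order of group means, day 0 (10.64) was followed by day 1 withdrawal (10.25), day 1 pulse (9.95) and day 1 control (9.67). A drop of 0.82 led to day 3 pulse (8.85), day 3 control (8.79), day 5 pulse (8.74) and day 3 withdrawal (8.67), and day 5 control (8.31) and day 5 withdrawal (8.21) came last. The called gaps between neighbours were the 4 below day 0, day 1 pulse, day 1 control and day 3 withdrawal. Of the 45 pairs, 37 were called.

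The other D-type cyclins went different ways. Ccnd3 (cluster 10445688) had 9.47, 9.39 and 9.29 at day 0, 9.03, 9.03 and 9.01 at day 1, 9.03, 9.07 and 8.83 at day 3 and 9.34, 9.36 and 9.50 at day 5. Day 1 and day 3 arrays were all below day 0, and day 5 arrays overlapped day 0. It fell at day 1 (−0.36 ± 0.082, adjusted p = 0.00663) and day 3 (−0.40 ± 0.082, adjusted p = 0.000326), rose between days 3 and 5 (0.42 ± 0.082, adjusted p = 0.000727), and at day 5 differed from day 0 by 0.018 ± 0.082 (adjusted p = 0.892). Its group means ran from 8.98 at day 3 withdrawal to 9.52 at day 5 pulse, with no called difference between neighbours and 19 of 45 pairs called.

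Ccnd2 (cluster 10548105) had 8.22, 8.31 and 7.94 at day 0, 8.09, 8.14 and 8.17 at day 1, 7.80, 7.86 and 8.18 at day 3 and 8.24, 8.43 and 8.59 at day 5 of withdrawal. Day 5 arrays overlapped those of day 0. The day 5 difference of 0.26 ± 0.098 was called (adjusted p = 0.0336), as was the step between days 3 and 5 of 0.47 ± 0.098 (adjusted p = 0.00139), in which no arrays overlapped. The day 5 call was lost without day 0 replicate 3 (0.15), day 5 withdrawal replicate 2 (0.25) or replicate 3 (0.17), while the step kept its call with each array left out. Median centring (0.19), quantile normalization (0.14) or a fit of the compared groups alone (0.26) also lost the day 5 call. The day 3 difference of −0.21 ± 0.098 missed the threshold (adjusted p = 0.104) and passed it without day 0 replicate 3 (−0.31) or day 3 withdrawal replicate 3 (−0.32). Group means ran from 7.90 at day 3 pulse to 8.45 at day 5 control, again with no called neighbours.

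**Figure D2:**
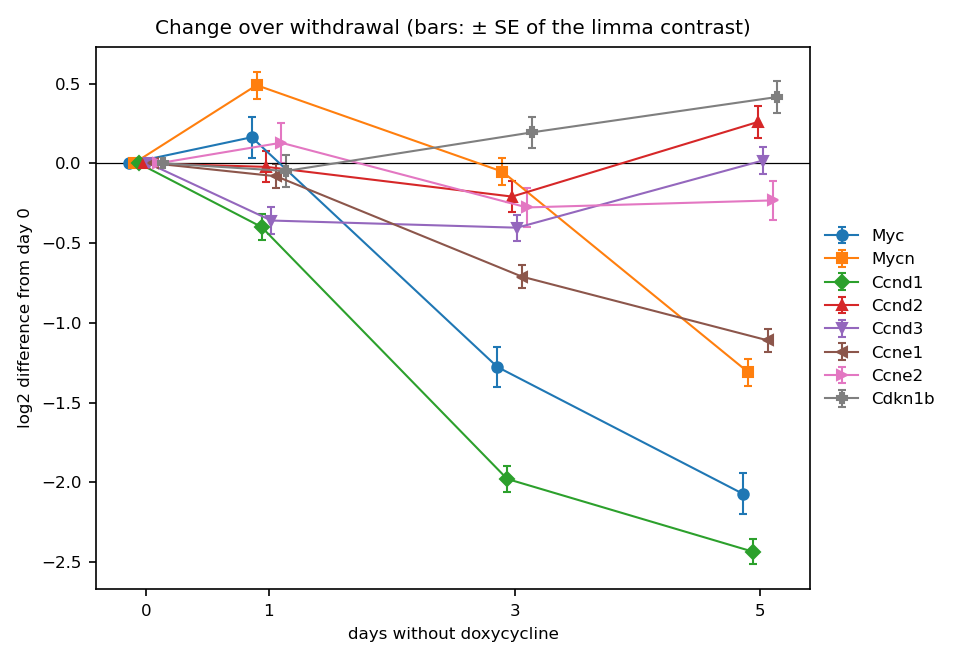
Log2 difference from day 0 (vertical axis, ± SE of the limma contrast) against days without doxycycline for each gene. Ccnd1 and Myc end lowest, at −2.43 and −2.07, Mycn is above day 0 at day 1 (0.49) and below it at day 5 (−1.31), and Cdkn1b ends highest (0.42).

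Ccne1, an E-type cyclin that partners Cdk2 at S phase entry, fell by day 3 and again by day 5. Ccne1 (cluster 10562563) had 11.19, 11.16 and 11.13 at day 0, 11.14, 10.98 and 11.12 at day 1, 10.51, 10.39 and 10.44 at day 3 and 10.12, 9.97 and 10.06 at day 5 of withdrawal. Day 1 overlapped day 0, and the arrays of days 3 and 5 lay below both in 2 separate steps. The differences from day 0 were −0.081 ± 0.074 at day 1 (adjusted p = 0.668), −0.71 ± 0.074 at day 3 (adjusted p = 2.86e-08) and −1.11 ± 0.074 at day 5 (adjusted p = 2.79e-12). Group means fell into 3 sets, with day 0 and the day 1 groups from 11.16 down to 11.08, a called gap of 0.47, the day 3 groups with day 5 pulse and day 5 control from 10.61 down to 10.34, and, after a called gap of 0.29, day 5 withdrawal at 10.05.

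Ccne2, the other E-type cyclin (cluster 10503264), had 7.92, 7.92 and 7.81 at day 0, 8.09, 8.01 and 7.94 at day 1, 7.79, 7.71 and 7.32 at day 3 and 7.86, 7.40 and 7.69 at day 5 of withdrawal. Its arrays spread more widely at days 3 and 5 than at days 0 and 1. No difference from day 0 was called, with −0.28 ± 0.12 at day 3 (adjusted p = 0.0895) and −0.23 ± 0.12 at day 5 (adjusted p = 0.14). Each of those passed without replicate 1 of its own withdrawal group, at −0.37 and −0.34. The step between days 1 and 3, −0.41 ± 0.12, was called (adjusted p = 0.0175) but not without day 1 withdrawal replicate 1 (−0.37) or day 3 withdrawal replicate 3 (−0.26). Only 8 of its 45 pairs of groups were called. The difference between the changes of Ccne1 and Ccne2 was not tested.

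Cdkn1b had 8.62, 8.79 and 8.64 at day 0, 8.59, 8.70 and 8.62 at day 1, 8.97, 8.93 and 8.72 at day 3 and 9.08, 9.10 and 9.12 at day 5 of withdrawal. All day 5 arrays were above all day 0 arrays, and those of days 1 and 3 overlapped day 0. It was 0.19 ± 0.098 at day 3 (adjusted p = 0.134) and rose by day 5, at 0.42 ± 0.098 (adjusted p = 0.000946). The further cluster 10542317 had 8.61, 8.62 and 8.48 at day 5 against 8.30, 8.61 and 8.37 at day 0, which overlapped. Its difference of 0.15 ± 0.17 was not called (adjusted p = 0.53). Group means of Cdkn1b were lowest at day 1 withdrawal (8.63) and day 0 (8.68) and highest at day 5 control (9.18), with no called neighbours and 18 of 45 pairs called. Those of the further cluster ran from 7.92 at day 1 control to 8.82 at day 5 control, with 11 of 45 pairs called.

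The changes after withdrawal were measured in bulk RNA, in which fewer cells of a type and less RNA per cell cannot be told apart. Of 10 markers of simple epithelium and trophoblast, 6 rose and 0 fell at day 5. Krt7 was at 11.11 at day 5 against 7.72 at day 0, and Tfap2c at 9.33 against 9.49. Of 19 fibroblast markers 10 rose and 1 fell. Acta2 was at 11.35 against 10.64, Thy1 at 7.26 against 7.74 and Lum, at a low signal, at 4.72 against 4.86. Of 10 pluripotent markers 6 fell and 1 rose, with Pou5f1 at 11.05 against 12.35 and Zfp42 at 9.92 against 11.72. Sall4 was at 10.22 against 10.26, and Epcam was higher, at 10.73 against 9.77. Of 10 extraembryonic endoderm markers 5 rose and 1 fell, and of 9 mesoderm and neural markers 5 fell and 0 rose. Of all clusters 23.8% rose and 18.8% fell. The part of these changes in the results for the Myc genes, cyclins and p27 was not tested.

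Genes downstream of the Myc genes and of the G1 cyclins were mostly lower at day 5. Of 25 measured Myc target genes 20 fell and 1 rose, with a median of −0.53, including the nucleoside diphosphate kinase Nme1 (−1.14 ± 0.090) and the ribosome biogenesis genes Bop1 (−0.99 ± 0.10) and Nolc1 (−0.93 ± 0.092). The 1 that rose was Tert (0.62 ± 0.091), the telomerase catalytic subunit, named after its value was seen. Of 28 E2F targets 20 fell and 1 rose, with a median of −0.41, including the DNA polymerase alpha subunit Pola1 (−1.09 ± 0.097), the ribonucleotide reductase subunit Rrm2 (−1.02 ± 0.085) and thymidylate synthase Tyms (−0.95 ± 0.087). Over all tested clusters 18.8% fell at day 5 and the median was −0.0059. Of all called clusters 55.9% were higher, and 42% were after median centring of the arrays.

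Other inhibitor genes and FOXO genes were mostly higher. Of 5 measured inhibitor genes other than Cdkn1b 4 rose and 0 fell, with Cdkn1c, which encodes p57, at 1.04 ± 0.11, Cdkn2b, which encodes p15, at 0.58 ± 0.079 and Cdkn2c, which encodes p18, at 0.43 ± 0.14. Cdkn1a, which encodes p21, was listed too but was not matched to a cluster carrying its symbol alone. Of 13 genes of the retinoblastoma and E2F families 4 rose and 4 fell, with Rb1 at 0.82 ± 0.12, E2f4 at −0.60 ± 0.085 and E2f8 at −0.59 ± 0.11. Of 12 FOXO factors and FOXO targets 8 rose and 2 fell, with Klf6 at 1.27 ± 0.080, Ccng2 at 0.84 ± 0.12 and Foxo1 at 0.80 ± 0.080. FOXO factors are known to raise Cdkn1b transcription in several cell types. These shares compare with 23.8% of all clusters called higher at day 5.

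Kinase, turnover and Myc partner genes were mixed. Of 9 genes for partner kinases, cyclin A and activating phosphatase 2 fell, Cdk2 (−0.60 ± 0.078) and Ccnh (−0.28 ± 0.086), and 1 rose, Ccna1 (0.24 ± 0.088). Of 12 genes for turnover of p27, cyclin E and Myc 4 rose and 3 fell, among them Cks1b (−0.59 ± 0.094), a cofactor of p27 breakdown, Usp28 (0.44 ± 0.081), a deubiquitinase that stabilizes Myc, and Rnf123 (0.42 ± 0.075), a ubiquitin ligase subunit for p27. Of 12 Myc network partners 1 rose, the Max-binding factor Mga (0.54 ± 0.092), and 1 fell, Mlx (−0.59 ± 0.086). Without the 4 widest arrays 4 of 12 partners rose and 1 fell, beside 46.7% of all clusters called in either direction. With the interquartile range as a covariate 6 of 9 kinase list genes fell and 1 rose, beside 48.4% called in either direction. In the fit of all arrays 42.5% of all clusters were called, so the shares of 3 of 9 kinase list genes and 2 of 12 partners lay below that of all clusters, and 7 of 12 turnover genes above it.

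**Figure D3:**
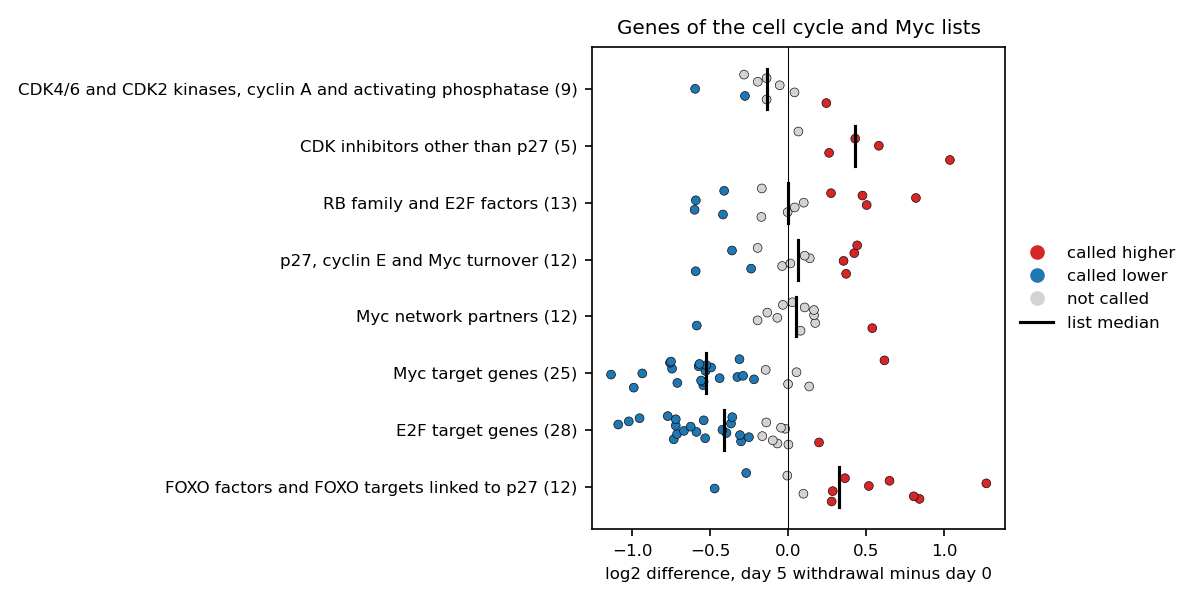
Log2 difference of day 5 withdrawal minus day 0 for each measured gene of 8 lists (points, number measured in parentheses), colored by call, with the list median as a bar. Myc and E2F targets lie mostly left of 0, with medians of −0.53 and −0.41, and 4 of the 5 other inhibitor genes are called higher.

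The 12 h doxycycline pulse was compared with the matching control to ask how far a brief return of Nanog moved these genes. Of the 8 genes, 1 rose and 1 fell at day 1 (Ccnd1 and Mycn), beside 3.75% of all clusters called. At day 3 none was called, with limma, and 0 of 8 had an unadjusted p under 0.05, beside 0.0385% of all clusters called. At day 5 Myc, Ccnd1 and Ccne1 rose and Cdkn1b fell, beside 12.2% called. Without the 4 widest arrays, 0 of 8 genes were called at day 5, where that leaves 1 control array whose spread is taken from the other groups. Of all clusters, 55 were called at day 5 without those arrays. When only the arrays compared were fitted, 0 of the 8 genes were called at day 1, beside 74 of all clusters, and 0 at day 5, beside 0 of all clusters. At day 5 of 10 pluripotent markers 0 were higher and 3 lower in pulsed cells, with list means of 10.82 in pulsed cells and 10.92 in controls. Fibroblast markers averaged 7.51 in pulsed cells and 7.41 in controls, with 2 of 19 higher and 1 lower, and epithelium and trophoblast markers 9.63 in pulsed cells and 9.54 in controls, with 1 of 10 higher and 1 lower.

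Ccnd1 had 9.89, 9.90 and 10.06 in pulsed cells at day 1, against 9.55, 9.73 and 9.73 in controls, and at day 5 it had 8.72, 8.77 and 8.74 in pulsed cells, against 8.40, 8.20 and 8.33 in controls. The pulsed arrays were all above the controls on both days. The differences were 0.28 ± 0.08 at day 1 (adjusted p = 0.0455), 0.055 ± 0.08 at day 3 (adjusted p = 0.787) and 0.43 ± 0.08 at day 5 (adjusted p = 0.00169). Averaged over the 3 days, Ccnd1 was higher by 0.26 ± 0.046 (adjusted p = 0.000651), and this was called in all 28 alternative fits. The day 1 call was lost without control replicate 1 (0.22) or 2 (0.31) or pulse replicate 1 (0.31), 2 (0.31) or 3 (0.23), and the day 5 call without the 4 widest arrays (0.34). After the pulse at day 5 Ccnd1 was still −1.90 ± 0.08 relative to day 0 (adjusted p = 2.94e-16).

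Myc had 8.66, 8.45 and 8.67 in pulsed cells at day 5, against 7.94, 8.08 and 8.44 in controls, with no overlap. At day 1 it had 9.58, 9.30 and 9.45 in pulsed cells, against 8.91, 9.03 and 9.37 in controls, which overlapped. The difference was 0.44 ± 0.13 at day 5 (adjusted p = 0.0289), 0.34 ± 0.13 at day 1 (adjusted p = 0.151) and −0.11 ± 0.13 at day 3 (adjusted p = 0.734). The day 5 call was lost without control replicate 1 (0.33) or 2 (0.40), without pulse replicate 2 (0.51) or 3 (0.40), and without the 4 widest arrays (0.65), while day 1 was called without control replicate 3 or without the 4 widest arrays, which include it (0.48 in both). The average over the 3 days was 0.22 ± 0.074 (adjusted p = 0.0346), a call lost when any 1 of 8 of the 18 arrays was left out, with 0.19 as the lowest value: these were day 1 control replicates 1 and 2, day 1 pulse replicate 1, day 3 control replicate 1, day 3 pulse replicates 2 and 3, day 5 control replicate 2 and day 5 pulse replicate 3.

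Mycn was lower in pulsed cells at day 1 and on average over the 3 days. At day 1 it had 10.77, 10.81 and 10.84 in pulsed cells, against 11.13, 11.20 and 11.04 in controls, with no overlap. The difference was −0.32 ± 0.085 (adjusted p = 0.0332). It was not called at day 3 (−0.14, adjusted p = 0.456) or day 5 (−0.11, adjusted p = 0.35). The average over the 3 days was −0.19 ± 0.049 (adjusted p = 0.00971). The day 1 call was lost, at −0.34 to −0.28, without control replicate 1 or 2 or any 1 of the pulse replicates 1, 2 and 3. The average was not called without the 4 widest arrays (−0.12) or with the interquartile range as a covariate (−0.098).

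Ccne1 had 10.66, 10.62 and 10.53 in pulsed cells at day 5, against 10.23, 10.38 and 10.42 in controls. The arrays did not overlap, and the difference of 0.26 ± 0.074 was called (adjusted p = 0.024), though not without control replicate 2 (0.28), pulse replicate 2 (0.25) or the 4 widest arrays (0.38). Cdkn1b had 8.98, 8.71 and 8.80 in pulsed cells, against 8.91, 9.39 and 9.24 in controls at day 5, and these overlapped. Its difference of −0.35 ± 0.098 (adjusted p = 0.0238) lost its call without control replicate 2 (−0.24) or 3 (−0.32) or pulse replicate 2 (−0.29) or 3 (−0.33), and was −0.078 without the 4 widest arrays, which include both of those controls. The further Cdkn1b cluster had a difference of −0.55 ± 0.17 (adjusted p = 0.036), with no overlap.

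Ccnd2, Ccnd3 and Ccne2 were not called for the pulse at any day. Their differences lay between −0.13 for Ccne2 at day 3 and 0.30 for Ccnd2 at day 1 (adjusted p = 0.0877). At day 1 Ccnd2 had 8.35, 8.35 and 8.33 in pulsed cells, against 8.19, 8.06 and 7.87 in controls, which did not overlap, and the difference was called without control replicate 1 (0.38). Pulse effects were also compared between days, and 0 of the 8 genes were called in any of the 3 comparisons with limma, with 2, 2 and 4 genes at an unadjusted p under 0.05. Beside these, 0.00855%, 0.111% and 0.936% of all clusters were called for day 3 minus day 1, day 5 minus day 1 and day 5 minus day 3. The difference of the day 5 and day 3 effects was 0.55 for Myc (adjusted p = 0.126) and 0.38 for Ccnd1 (adjusted p = 0.0927).

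Over the 3 pulses together, 3 of the 8 genes were called (Myc and Ccnd1 higher, Mycn lower), beside 20.8% of all clusters. Of 12 FOXO list genes 7 were lower and 0 higher, with Foxo1 at −0.24 ± 0.046, Sesn3 at −0.23 ± 0.062 and Foxo4 at −0.20 ± 0.042. Of 13 retinoblastoma and E2F genes 5 were lower and 0 higher, with Tfdp2 at −0.27 ± 0.061, Rbl2 at −0.26 ± 0.054 and Rb1 at −0.40 ± 0.072. Of 12 turnover genes 5 were lower and 0 higher, with Usp28 at −0.38 ± 0.047, Fbxw7, a ubiquitin ligase subunit for cyclin E and Myc, at −0.21 ± 0.052, and Ambra1, a ligase adaptor for D-type cyclins, at −0.20 ± 0.057.

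Myc targets were called for the pulse at close to the share of all clusters, 20.8%, and E2F targets were called below it. Of 25 Myc targets 3 were higher and 2 lower, among them Nme1 (0.17 ± 0.052), Tert (−0.25 ± 0.052) and the pyrimidine synthesis enzyme Cad (−0.19 ± 0.051). Of 28 E2F targets 0 were higher and 3 lower, Mybl2 (−0.15 ± 0.035), Mcm7 (−0.14 ± 0.039) and Lig1 (−0.13 ± 0.043). Of 12 Myc partners 2 were lower, Mxi1 (−0.23 ± 0.037) and Mycl (−0.14 ± 0.037). Neither the 9 kinase list genes nor the 5 other inhibitors had a call with limma, and 1 and 0 of them had an unadjusted p under 0.05. Without the 4 widest arrays 0 FOXO genes, 0 retinoblastoma and E2F genes, 0 Myc targets and 0 E2F targets were called in either direction, and 1 turnover gene and 1 Myc partner were called lower, beside 2.12% of all clusters called. Over the 3 pulses 1 pluripotent marker was higher and 4 lower of 10, and without those arrays 1 was higher and 0 lower. The part of these markers in the results was not tested.

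**Figure D4:**
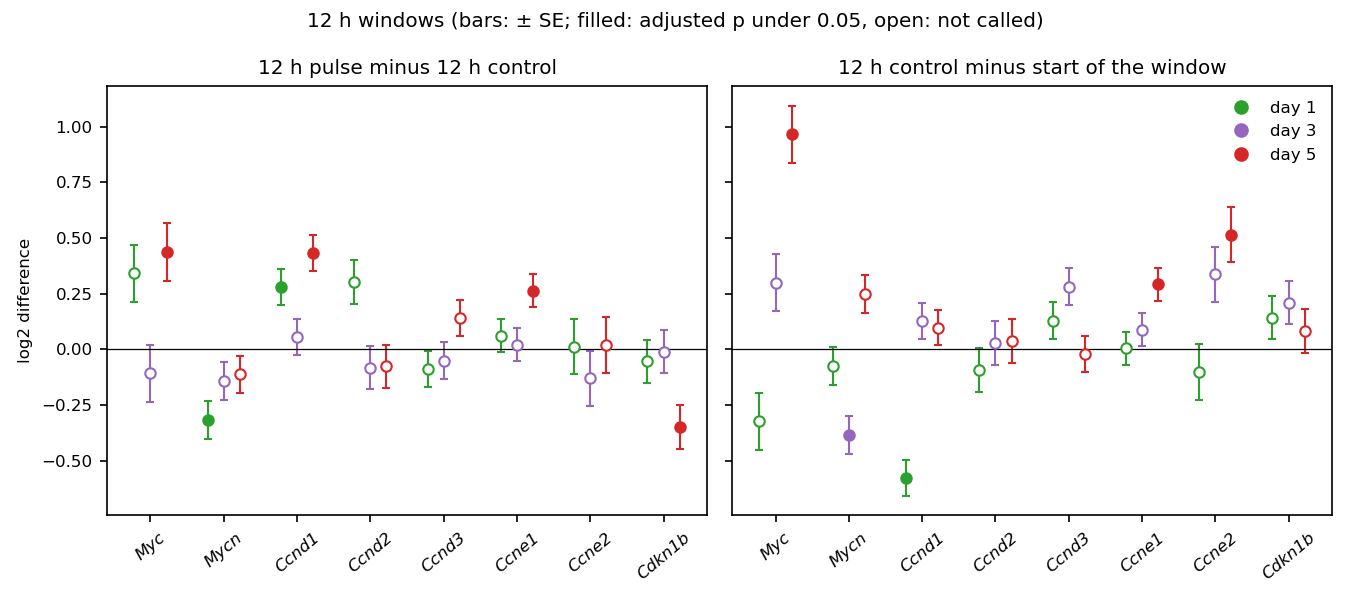
Log2 difference (± SE) of pulse minus control (left) and of control minus the withdrawal cells at the start of the 12 h window (right) for each gene at days 1, 3 and 5, with filled points where limma called the difference. The largest point is the rise of Myc in day 5 controls (0.97), and on the left the filled points are Mycn and Ccnd1 at day 1 and Myc, Ccnd1, Ccne1 and Cdkn1b at day 5.

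The 12 h control window itself, with no doxycycline, also moved some of the genes. At day 5 Myc, Ccne1 and Ccne2 rose and 0 of 8 fell, beside 3.31% of all clusters called. At day 1 only Ccnd1 was called, lower, beside 6.25%, and at day 3 only Mycn, lower, beside 1.69%. These comparisons share the control arrays with the pulse comparisons.

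Myc had 7.94, 8.08 and 8.44 in day 5 controls, against 7.20, 7.17 and 7.19 in the withdrawal cells taken 12 h earlier. All controls were higher, by 0.97 ± 0.13 (adjusted p = 7.6e-05) or 1.96-fold. It was called in all 16 alternative fits, at 0.75 to 1.10. The rise was 0.75 without the 4 widest arrays, a fit that leaves 1 control array, with its spread taken from the other groups. At day 3 the difference was 0.30 ± 0.13 (adjusted p = 0.32). At day 1 it was −0.32 ± 0.13 (adjusted p = 0.141), and it was called without control replicate 3 or without the 4 widest arrays, which include it (−0.46 in both). Cell type markers moved over the same 12 h at day 5. Of 19 fibroblast markers 4 were lower and 0 higher in controls than in withdrawal cells (list means 7.41 in controls and 7.60 in withdrawal cells). Of 10 epithelium and trophoblast markers 4 were higher and 0 lower (list means 9.54 in controls and 9.28 in withdrawal cells). Of all clusters 3.31% were called in either direction. No marker counts are given without the 4 widest arrays, where 1 control array is left. The part of these markers in the rise of Myc was not tested.

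Ccne2 had 7.90, 8.20 and 8.39 in day 5 controls, against 7.86, 7.40 and 7.69 in withdrawal cells, a difference of 0.52 ± 0.12 (adjusted p = 0.0201). The arrays did not overlap, with the lowest control just above the highest withdrawal array. Ccne1 had 10.23, 10.38 and 10.42 in controls, against 10.12, 9.97 and 10.06 in withdrawal cells, and rose by 0.29 ± 0.074 (adjusted p = 0.0265). Both calls were lost without withdrawal replicate 2 (0.39 for Ccne2 and 0.26 for Ccne1), withdrawal replicate 3 (0.53 and 0.30), control replicate 2 (0.50 and 0.27) or control replicate 3 (0.40 and 0.26), and without the 4 widest arrays they were 0.25 and 0.18. Of 28 E2F targets 7 rose and 0 fell in the same window, beside 3.31% of all clusters called in either direction. With the interquartile range as a covariate 6 rose and 0 fell, beside 5.46%. Without the 4 widest arrays 1 control array is left, so no count is given for that fit.

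Ccnd1 had 9.55, 9.73 and 9.73 in day 1 controls, against 10.23, 10.21 and 10.30 in withdrawal cells, a difference of −0.58 ± 0.08 (adjusted p = 0.000162) with no overlap that was called in all 16 alternatives. Mycn had 10.14, 10.40 and 10.28 in day 3 controls, against 10.74, 10.60 and 10.63 in withdrawal cells, a difference of −0.39 ± 0.085 (adjusted p = 0.0136) with no overlap. That call was lost without withdrawal replicate 1 (−0.35) or control replicate 1 (−0.32). The remaining genes had no called change over the 12 h, with Ccnd3 at 0.28 ± 0.082 at day 3 (adjusted p = 0.0855) the closest to the threshold at that day.

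Relative to day 0, pulsed cells had 0 higher and 2 lower genes of the 8 at day 1 (Ccnd1 and Ccnd3), 1 higher and 4 lower at day 3, and 0 higher and 4 lower at day 5. The shares of all clusters called were 11.2%, 25.3% and 39.2%. At day 3 Cdkn1b was higher (0.39 ± 0.098, adjusted p = 0.00307) and its further cluster was at 0.079 ± 0.17 (adjusted p = 0.803), while Myc (−1.08 ± 0.13), Mycn (−0.58 ± 0.085), Ccnd1 and Ccne1 (−0.60 ± 0.074) were lower. At day 5 Myc was −0.67 ± 0.13, Mycn −1.17 ± 0.085 and Ccne1 −0.55 ± 0.074, all called lower, whereas Nanog itself was −0.19 ± 0.08 (adjusted p = 0.061). Ccnd3 at day 1 (−0.32 ± 0.082) lost its call without day 0 replicate 1 (−0.27). Without the 4 widest arrays Ccnd2 was called lower at day 3 (−0.26 ± 0.098 with all arrays, adjusted p = 0.0509; adjusted p = 0.0442 without the 4) and Ccne2 higher at day 5 (0.30 ± 0.12, adjusted p = 0.0544; adjusted p = 0.0287 without the 4), at differences equal to those with all arrays. Ccnd2 was also called without day 0 replicate 3 at day 3 (−0.37) and without day 0 replicate 2 at day 5 (0.30). These comparisons share the day 0 arrays with those of withdrawal.

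Over the 10 group means, Myc and Ccne1 had a Pearson r of 0.97, Ccnd1 and Ccne1 0.95, and Myc and Ccnd1 0.90. Cdkn1b, read from cluster 10542310, ran against them at −0.83 with Myc, −0.87 with Ccnd1 and −0.86 with Ccne1. No r was computed for its further cluster. The groups share 1 clone and the order of days, so these r values describe the courses only. Among 13439 other genes, the courses closest to Myc were those of Elof1 (0.985), Cpsf2 (0.977) and Mrpl46 (0.969). The closest to Mycn were Pprc1 (0.985), Wdr43 (0.982) and Ccdc85a (0.979). Wdr43 is also in the Myc target list, as is Bop1, the closest to Ccne1 (0.984) before Stk16 (0.980) and Gid8 (0.978).

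For Ccnd1 the closest were Rsl24d1 (0.989), G3bp2 (0.988) and Spink1 (0.987), and for Cdkn1b they were Ccpg1 (0.989), Cenpk (0.968) and Zscan26 (0.967). The courses of Ccnd2, Ccnd3 and Ccne2 had less close neighbours. Those were Tmem223 (0.925), Mgat2 (0.924) and Cxcr2 (0.923) for Ccnd2, Eid1 (0.943), Sec14l1 (0.920) and Slc25a4 (0.917) for Ccnd3, and Nudt22 (0.935), Apmap (0.921) and Ube4a (0.920) for Ccne2. Over the 30 single arrays, r with Ccnd2 was 0.80 for Tmem223, 0.41 for Mgat2 and 0.64 for Cxcr2. Cxcr2 had a low signal, with group means from 5.12 to 5.58. For the neighbours of Ccnd3 and Ccne2, r over the 30 arrays ran from 0.75 to 0.84.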

How the data were processed

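The deposited values are log2 signals per transcript cluster that the authors made with RMA. The submitters' processing notes name Affymetrix Expression Console, and its version and a genome build are not given in the sources used here. RMA makes array distributions similar, so changes are relative to the other clusters. Arrays have no read depth, and 3 arrays per group limit the precision. The labels give no batch, and the fit behind the reported values had no covariate.

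The 30 arrays were fitted together by limma (version 3.58.1, in R 4.3.3), each group having its own mean, with Benjamini-Hochberg adjustment over the 23385 clusters with a symbol within each contrast. Nothing in the labels tells whether the replicates came from separate cultures, and the p-values reflect only how far the deposited arrays of a group differ. The genes, gene lists and tests were chosen with earlier results of these data known. Named genes were the 8 genes, Nanog, the 3 genes with the closest course to each (Pearson r over group means, SD of at least 0.1), and up to 3 called genes with the largest change per pathway list at day 5 withdrawal and over the pulses. Cell type markers were named as examples outside this rule. Among fibroblast markers Mmp2, at 9.12 at day 5 of withdrawal against 8.12 at day 0, changed more than Acta2. Lists were also counted without the wide arrays, an alternative chosen after seeing the data. No gene set test was run. On simulated data the fit was tested for recovery of known changes. Protein sequences were not used here.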

Additional observations from a re-analysis of the deposited data

How the results depend on the processing

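Among the 8 genes and 18 comparisons, 49 values were called, and none reversed under any alternative run. Signs changed among values not called either way in 60 of 1104 values with 1 array left out. In each other setting that covered all 8 genes, signs changed in up to 12 of 144 such values. With the further Cdkn1b cluster in place of the one used, signs changed in 6 of 18 values and 2 of 3 calls were lost. Every call at days 1 and 3 of withdrawal against day 0 held in all alternatives. With 1 array left out at a time, 44 of 330 calls were lost and 20 gained, most of them in pulse and control comparisons. With trend and robust variances, the clusters called numbered 43 for the day 3 pulse, 12 for the day 3 minus day 1 pulse effect, 71 for the day 5 minus day 1 pulse effect and 614 for the day 5 minus day 3 pulse effect. With array weights, the clusters called numbered 3859 for day 1 withdrawal, 8789 for the day 3 minus day 1 step, 4998 for the day 5 minus day 3 step and 4573 for the day 1 pulse. Further counts were 1865 for the day 3 pulse, 11154 for the day 5 pulse, 11125 for the pulse average and 4302 for the day 1 window. Further counts were 1228 for the day 3 window, 4628 for the day 5 window, 5874 for day 1 pulse relative to day 0 and 8984 for day 3 pulse relative to day 0. Further counts were 1142 for the day 3 minus day 1 pulse effect, 4827 for the day 5 minus day 1 pulse effect and 7199 for the day 5 minus day 3 pulse effect. Of these 8 genes, the numbers called were 5 for the day 1 pulse, 5 for the pulse average, 3 for the day 1 window, 2 for the day 3 window, 3 for the day 3 minus day 1 pulse effect, 3 for the day 5 minus day 1 pulse effect and 2 for the day 5 minus day 3 pulse effect. With the compared groups fitted alone, the clusters called numbered 74 for the day 1 pulse, 1 for the day 3 pulse, 0 for the day 5 pulse and 2866 for the pulse average. Further counts were 122 for the day 1 window, 55 for the day 3 window, 19 for the day 5 window and 1 for the day 3 minus day 1 pulse effect. Further counts were 1 for the day 5 minus day 1 pulse effect and 0 for the day 5 minus day 3 pulse effect. Genes called among the 8 numbered 0 for the day 1 pulse, 0 for the day 5 pulse, 0 for the day 3 window and 1 for the day 5 window. With median centring, the clusters called numbered 2 for the day 3 pulse, 862 for the day 1 window, 9 for the day 5 minus day 1 pulse effect and 110 for the day 5 minus day 3 pulse effect. Of these 8 genes, the numbers called were 0 for the day 1 pulse. With quantile normalization, the clusters called numbered 26 for the day 3 pulse, 2758 for the pulse average, 634 for the day 3 window and 21 for the day 3 minus day 1 pulse effect. Further counts were 216 for the day 5 minus day 1 pulse effect and 811 for the day 5 minus day 3 pulse effect. Genes called among the 8 numbered 4 for the day 1 pulse, 2 for the day 1 window and 2 for the day 5 minus day 3 pulse effect. With the lowest 40 percent of clusters by signal left out, the clusters called numbered 60 for the day 3 pulse, 10 for the day 3 minus day 1 pulse effect, 74 for the day 5 minus day 1 pulse effect and 534 for the day 5 minus day 3 pulse effect. Of these 8 genes, the numbers called were 2 for the day 3 window and 1 for the day 5 minus day 3 pulse effect. With clusters without a symbol included, the clusters called numbered 41 for the day 5 minus day 1 pulse effect. Genes called among the 8 numbered 1 for the day 1 pulse. With the replicate number as a block, the clusters called numbered 10 for the day 5 minus day 1 pulse effect. Of these 8 genes, the numbers called were 1 for the day 1 pulse. The replicate numbers did not pair the samples: 36 of 135 same-numbered pairs of arrays had deviations correlated over 0.1, with a mean of −0.015, against 89 of 270 with different numbers, and the block changed 1 of the 49 calls, that of Ccnd1 in the day 1 pulse. With the interquartile range as a covariate, the clusters called numbered 2798 for day 1 withdrawal, 67 for the day 3 pulse, 537 for the day 5 pulse and 841 for the pulse average. Further counts were 840 for the day 3 window, 1276 for the day 5 window, 4804 for day 1 pulse relative to day 0 and 62 for the day 3 minus day 1 pulse effect. Further counts were 322 for the day 5 minus day 1 pulse effect and 833 for the day 5 minus day 3 pulse effect. Genes called among the 8 numbered 2 for the day 1 window and 2 for the day 5 minus day 3 pulse effect. Without the 4 widest arrays, the clusters called numbered 1405 for the day 1 pulse, 2 for the day 3 pulse, 55 for the day 5 pulse and 496 for the pulse average. Further counts were 110 for the day 5 window, 53 for the day 5 minus day 1 pulse effect and 41 for the day 5 minus day 3 pulse effect. Of these 8 genes, the numbers called were 0 for the day 5 pulse, 2 for the day 1 window and 1 for the day 5 window. With each array left out in turn, the clusters called ran 821 to 1208 for day 1 withdrawal, 1373 to 2225 for day 1 pulse relative to day 0, 490 to 1395 for the day 1 window and 288 to 906 for the day 1 pulse. Other ranges were 2539 to 9253 for the pulse average, 1 to 3 for the day 3 minus day 1 pulse effect, 3 to 418 for the day 5 minus day 1 pulse effect and 151 to 280 for the day 3 window. Other ranges were 1 to 4 for the day 3 pulse, 20 to 881 for the day 5 minus day 3 pulse effect, 140 to 3134 for the day 5 window and 520 to 8617 for the day 5 pulse. The genes called among the 8 ran 1 to 2 for day 1 pulse relative to day 0, 1 to 2 for the day 1 window, 0 to 3 for the day 1 pulse and 2 to 5 for the pulse average. Other gene ranges were 0 to 1 for the day 3 window, 0 to 2 for the day 5 minus day 3 pulse effect, 1 to 4 for the day 5 window and 1 to 4 for the day 5 pulse.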
